A study of Mus musculus with 17 samples.

Results

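Transcript levels of 9 core circadian clock genes, Per1, Per2, Per3, Cry1, Cry2, Arntl, Clock, Npas2 and Nfil3, were examined in RNA-seq of mouse diaphragm, the main muscle of breathing. The 9 genes were taken by symbol from the 47643 genes of the expression table. Levels are given as TPM, transcripts per 1000000, in which reads are divided by gene length and scaled to the same sum in every mouse. The data came from 17 male C57BL/6J mice aged 4 months, with 1 library per mouse. Tumor-free mice received mock injections of saline with albumin (Control, n = 5) or rFibcd1 (Control + rFibcd1, n = 5). Mice bearing subcutaneous tumors grown from Lewis lung carcinoma cells in both flanks received the mock injections (LLC, n = 3) or rFibcd1 (LLC + rFibcd1, n = 4). rFibcd1 is a recombinant C-terminal fragment of mouse Fibcd1, a fibrinogen-domain protein made by muscle. Full-length Fibcd1 spans the membrane, and cleavage releases a secreted C-terminal part. rFibcd1 was injected into the peritoneal cavity. The mice were otherwise wild type and carried no transgene, and the tumors came from a single established cell line. The hour of dissection, on which clock transcripts depend, is not given in the sources used here. Whether it differed between the groups is unknown, so its part in the differences below was not tested.

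The molecular clock is a feedback loop that runs in nearly every cell, myofibers included. In its activating limb, ARNTL (also called BMAL1) pairs with CLOCK or with its paralog NPAS2 and switches on genes that carry E-box elements, among them the Per and Cry genes. PER and CRY proteins return to the nucleus and repress that pair, so that Arntl and Per transcripts peak at nearly opposite times of day. A further loop controls Arntl through ROR activators and REV-ERB repressors, and another is formed by the activators DBP, TEF and HLF and the repressor NFIL3 at D-box elements. In skeletal muscle the loop drives daily rhythms of genes for fuel use and protein turnover.

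In Arntl and Per3, 2 of the 8 members that could be tested, tumor-bearing mice that received rFibcd1 lay outside the range of all other mice, which held for 0.992% of all genes tested, and in the other 6 members they overlapped 1 or more groups. Arntl averaged 11.4 ± 3.76 TPM (SD, n = 4) in LLC + rFibcd1, against 3.14 ± 1.58 TPM (SD, n = 5) in Control and 3.87 ± 0.927 TPM (SD, n = 3) in LLC. Per2 averaged 4.90 ± 2.25 TPM (SD, n = 4) in LLC + rFibcd1, against 14.98 ± 7.01 (SD, n = 5) in Control and 12.5 ± 3.51 (SD, n = 3) in LLC. Against Control, Arntl rose and Per2, Per3 and Cry2 fell past the threshold of an adjusted p of 0.05. Against LLC alone, the same 4 genes had the same directions, but 0 of the members passed that threshold, which 0.113% of all genes did. The tumor alone (LLC against Control) moved 0 members past it, where 35.8% of all genes passed. rFibcd1 alone (Control + rFibcd1 against Control) also moved 0 members past it, where 0.0% of all genes passed.

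The depth recovered from the low TPM values was 50.8 to 54.6 reads per mouse in units of 1000000, and no library shared its values with another. Of the members, 8 passed a filter of at least 1 TPM in at least 3 mice, which kept 13305 genes. Npas2 was below it, with 1 mouse above 1 TPM. The reads behind a value ran from 10 to 196 for Npas2, from 366 to 3255 for Per2 and from 2218 to 8276 for Per1. The summed TPM of 10 skeletal myofiber genes, the tissue's defining markers, was 45325 or more in every mouse. It was lower in LLC (45325 to 47576) than in any Control mouse (52033 to 56582), and it was 45993 to 53712 in LLC + rFibcd1 and 50824 to 57817 in Control + rFibcd1. Mitochondrially encoded genes took 41.3% to 44.3% of TPM in LLC, 43.7% to 46.5% in LLC + rFibcd1, 45.9% to 48.4% in Control and 45.4% to 50.4% in Control + rFibcd1. In a whole muscle, fewer cells of a type and less RNA per cell cannot be told apart.

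Sequences around the start sites of the members are shown because the loop described above is defined by the elements they carry. RefSeq windows on GRCm38.p6 running from 250 bases before to 50 bases after a start site were found for 8 members, in 12 windows, and Per2 had no entry. Letters were searched on both strands and compared with all 32851 windows of the same length. The E-box was searched as CACGTG (7.15% of windows), the E-prime box as CACGTT (4.68%), the D-box as TTATGTAA (0.938%) and the ROR and REV-ERB element as TAGGTCA (2.61%). Per1 and Cry1 held an E-box, Cry1 and Cry2 an E-prime box, Per3 the D-box and Arntl and Nfil3 the ROR and REV-ERB element. A second form of the D-box, TTACGTAA (0.119% of windows), the cAMP element TGACGTCA (1.79%) and the glucocorticoid receptor letters AGAACA (19.0%) were in 0 of the member windows. The core AGGTCA, which lies inside the ROR and REV-ERB element, was in 4 of the 12 member windows (of Arntl, Clock, Nfil3 and Per1) and in 16.3% of all windows. A match describes letters in a window and is not a measured binding site.

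The fragments below run 5′ to 3′ along the strand of the gene, with the matched letters in capitals. In order, they lie at chr11:69098763-69098808 (Per1, plus strand), chr4:151044796-151044890 (Per3, minus strand), chr10:85185089-85185153 (Cry1, minus strand), chr2:92434210-92434255 (Cry2, minus strand), chr7:113207531-113207557 (Arntl, plus strand) and chr13:52981040-52981071 (Nfil3, minus strand).
Per1, 1 E-box whose first base is 166 bases before the start site: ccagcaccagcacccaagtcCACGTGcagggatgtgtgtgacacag
Per3, 2 D-boxes beginning 205 and 158 bases before it: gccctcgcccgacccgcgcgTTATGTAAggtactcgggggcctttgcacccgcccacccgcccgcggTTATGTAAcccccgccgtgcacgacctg
Cry1, an E-prime box 79 bases and an E-box 60 bases before it: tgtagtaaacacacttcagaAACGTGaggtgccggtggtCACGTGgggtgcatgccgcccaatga
Cry2, an E-prime box 166 bases before it: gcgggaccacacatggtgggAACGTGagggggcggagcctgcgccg
Arntl, a ROR and REV-ERB element 30 bases after it: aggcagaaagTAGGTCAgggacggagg
Nfil3, the same element on the other strand, 12 bases before it: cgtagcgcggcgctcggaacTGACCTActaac
The E-prime letters appear as AACGTG where they match the opposite strand. The Per1 fragment belongs to a start site inside the gene (chromosome 11, 69095217 to 69109960 in GENCODE vM21), and the Arntl fragment lies after both the RefSeq and the GENCODE start of its gene (chromosome 7, 113207465 to 113314126). Within the GENCODE span of Nfil3 (chromosome 13, 52967209 to 52981073), the fragment shown is at the first bases of the gene. The fragments of Per3 (chromosome 4, 151003652 to 151044665), Cry1 (chromosome 10, 85131700 to 85185064) and Cry2 (chromosome 2, 92403646 to 92434043) lie before the gene.

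The Per genes encode repressors that act on the ARNTL pair together with the CRY proteins. Per3 (chromosome 4), the only gene shown here with D-boxes in its window, measured 13.9, 14.8, 8.42, 12.8 and 12.998 TPM in Control replicates 1 to 5 and 11.3, 12.8, 10.1, 13.6 and 14.1 TPM in Control + rFibcd1. It was at 14.0, 9.66 and 11.5 TPM in LLC and at 6.04, 3.34, 6.81 and 5.63 TPM in LLC + rFibcd1. All 4 LLC + rFibcd1 mice were below each of the other 13 mice, whose lowest value was 8.42 TPM in Control replicate 3. The mean TPM was 2.15-fold lower in LLC + rFibcd1 than in LLC, and the difference of log2(TPM + 1) was -1.001 ± 0.20 (SE; limma adjusted p = 0.0714). The means of the other 3 groups, 12.6, 12.4 and 11.7 TPM in Control, Control + rFibcd1 and LLC, lay within 1 SD of each other.

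Per2 (chromosome 1, 91415982 to 91459324), whose protein binds the CRY repressors, measured 15.9, 20.2, 6.48, 9.33 and 23.0 TPM in Control. It was at 12.3, 13.9, 18.4, 12.8 and 15.2 TPM in Control + rFibcd1 and at 12.1, 9.19 and 16.2 TPM in LLC. In LLC + rFibcd1 it was at 3.48, 2.49, 7.03 and 6.58 TPM. These 4 mice were below every LLC and every Control + rFibcd1 mouse, and they overlapped the Control group through Control replicate 3. Their mean TPM was 2.55-fold lower than in LLC and 3.06-fold lower than in Control. The differences of log2(TPM + 1) were -1.25 ± 0.37 from LLC (SE; limma adjusted p = 0.165) and -1.39 ± 0.33 from Control (adjusted p = 0.0325).

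Per1, which also responds quickly to hormones and activity, was the most abundant member. It measured 58.5, 33.5, 16.5, 31.9 and 37.2 TPM in Control, 46.2, 28.4, 40.5, 28.2 and 22.8 TPM in Control + rFibcd1, and 27.1, 41.1 and 45.5 TPM in LLC. The LLC + rFibcd1 mice were at 20.8, 17.9, 21.9 and 28.7 TPM, the lowest group mean of the 4, but they overlapped each of the other groups. The log2 difference from LLC was -0.72 ± 0.33 (SE; limma adjusted p = 0.215) and that from Control was -0.56 ± 0.29 (adjusted p = 0.301).

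The cryptochromes, the stronger transcriptional repressors of the loop, differed less. Cry2 measured 14.8, 15.8, 10.9, 14.2 and 13.8 TPM in Control, 12.03, 12.9, 11.5, 13.8 and 12.98 TPM in Control + rFibcd1, and 15.4, 13.1 and 14.6 TPM in LLC. The LLC + rFibcd1 mice, at 11.4, 7.99, 10.9 and 9.54 TPM, were all below the LLC mice and overlapped the Control mice only at Control replicate 3. Their mean Cry2 TPM was 1.44-fold lower than in LLC. The difference of log2(TPM + 1) from LLC was -0.50 ± 0.12 (SE; limma adjusted p = 0.1199), and Cry2 fell against Control by 0.45 ± 0.10 on that scale (adjusted p = 0.0297). Cry1 ranged from 5.29 to 10.4 TPM in Control, from 6.77 to 8.22 in Control + rFibcd1, from 5.89 to 7.83 in LLC and from 4.45 to 6.94 in LLC + rFibcd1. All 4 groups of Cry1 overlapped, and its log2 difference between LLC + rFibcd1 and LLC was -0.24 ± 0.18 (adjusted p = 0.387).

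The genes of the activating limb lay in the other direction. Arntl, the only clock gene whose single loss stops the rhythm, measured 2.73, 2.06, 5.72, 3.40 and 1.77 TPM in Control and 3.38, 2.45, 3.10, 2.28 and 2.31 TPM in Control + rFibcd1. It was at 2.88, 4.72 and 4.00 TPM in LLC and at 11.1, 16.7, 8.27 and 9.42 TPM in LLC + rFibcd1. Every LLC + rFibcd1 mouse was above every other mouse, the nearest being Control replicate 3. Mean Arntl TPM in LLC + rFibcd1 was 2.94-fold higher than in LLC and 3.63-fold higher than in Control. The differences of log2(TPM + 1) were 1.32 ± 0.27 from LLC (SE; limma adjusted p = 0.0734) and 1.61 ± 0.24 from Control (adjusted p = 0.00333).

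Npas2 (chromosome 1, 39193731 to 39363236), the paralog that can stand in for CLOCK, was the least abundant member. It measured 0.158, 0.0993, 0.357, 0.184 and 0.156 TPM in Control, 0.0864, 0.131, 0.209, 0.188 and 0.110 TPM in Control + rFibcd1, 0.201, 0.258 and 0.552 TPM in LLC and 0.667, 1.63, 0.494 and 0.753 TPM in LLC + rFibcd1. The LLC + rFibcd1 mice were above all Control mice and overlapped the LLC group at LLC replicate 3. Npas2 was tested only under alternatives. With a filter and a pseudocount of 0.1 TPM, a setting added after its low level was seen, it was 1.70 ± 0.32 higher than in Control (log2, SE; limma adjusted p = 0.0129) and 1.13 ± 0.37 higher than in LLC (adjusted p = 0.228). The ratio of mean TPM was 4.65 over Control and 2.63 over LLC. With no filter and a pseudocount of 1 TPM, the log2 difference from Control was 0.63 (adjusted p = 0.0252), since the larger pseudocount compresses low values.

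Clock (chromosome 5, 76209868 to 76304792), the usual partner of ARNTL, varied least in LLC, at 3.19, 3.04 and 3.23 TPM. It was at 3.33, 2.68, 3.71, 3.32 and 2.65 TPM in Control and at 3.31, 3.14, 2.55, 1.98 and 2.59 TPM in Control + rFibcd1. The LLC + rFibcd1 mice were at 4.56, 6.16, 3.74 and 3.62 TPM, above all LLC and Control + rFibcd1 mice and overlapping Control. The log2 difference was 0.39 ± 0.15 from LLC (SE; limma adjusted p = 0.200) and 0.56 ± 0.13 from Control + rFibcd1 (adjusted p = 0.0193), with a ratio of mean TPM of 1.44 over LLC. Nfil3, the D-box repressor, ranged from 6.46 to 28.6 TPM in Control, 8.37 to 33.0 in Control + rFibcd1, 10.1 to 17.8 in LLC and 12.5 to 27.9 in LLC + rFibcd1. Its 4 group ranges overlapped and its log2 difference between LLC + rFibcd1 and LLC was 0.39 ± 0.48 (adjusted p = 0.593).

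**Figure D1:**
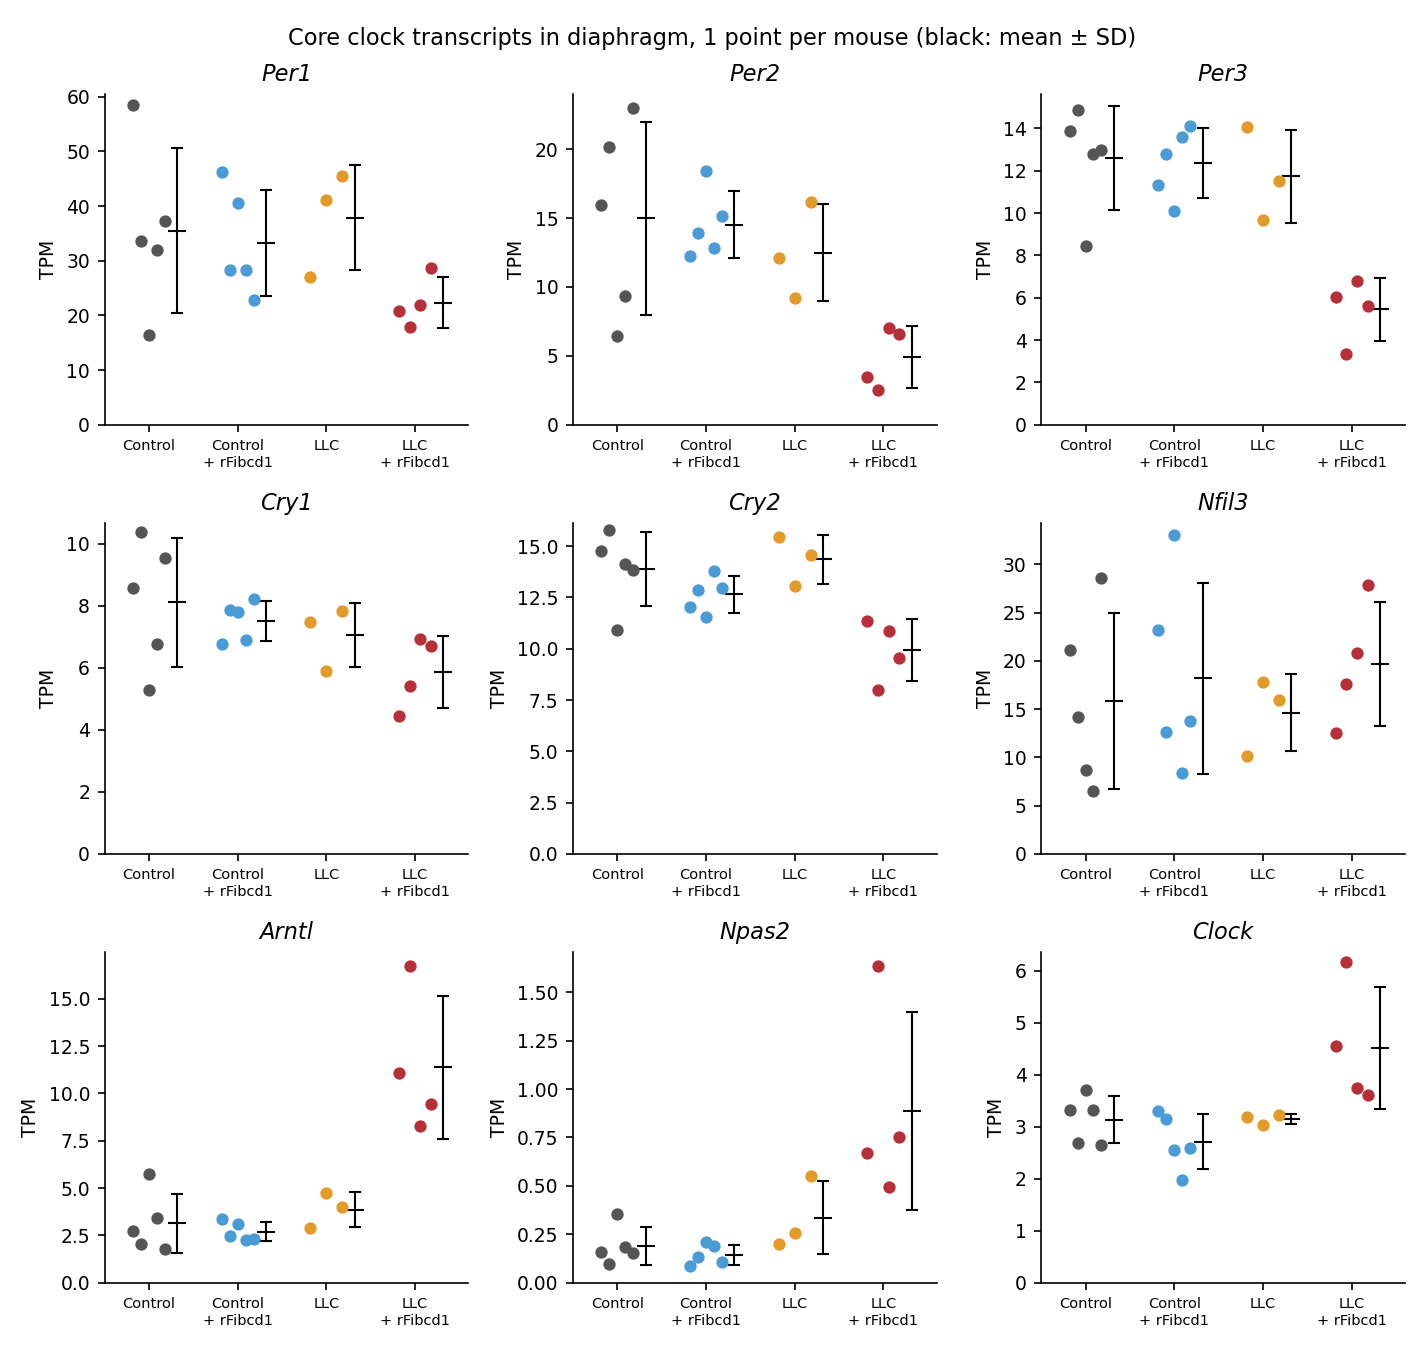
Level of each member in TPM (linear axis from 0) for every mouse in the 4 groups, 1 point per mouse, with the group mean and SD in black. Arntl lies between 8.27 and 16.7 TPM in LLC + rFibcd1 and at or below 5.72 TPM elsewhere, while Per3 lies at or below 6.81 TPM in LLC + rFibcd1 and at or above 8.42 TPM elsewhere.

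Whether rFibcd1 altered these genes in tumor-bearing mice was read from LLC + rFibcd1 against LLC. With limma, 0 of the 8 members tested passed an adjusted p of 0.05, where 0.113% of all genes tested passed. At an unadjusted p under 0.05, 6 of 8 passed, where 22.7% of all genes did, with Arntl and Clock higher and Per1, Per2, Per3 and Cry2 lower. Dunn's test called 0 members, and 0.0% of all genes, after adjustment, and 2 members at an unadjusted p under 0.05, where 7.17% of all genes passed. In 5 of 8 members the values of the LLC + rFibcd1 and LLC mice did not overlap (Arntl and Clock higher, Per2, Per3 and Cry2 lower), against 14.6% of all genes. By p-value, Per3 and Arntl ranked 29 and 35 among the 13305 genes. Both passed after leaving out Control replicate 3 (adjusted p = 0.0480 for Per3 and 0.0437 for Arntl) and after leaving out LLC + rFibcd1 replicate 3 (0.0457 and 0.0484), while over all 17 fits without a mouse the largest adjusted p of either was 0.351. Over all genes the median log2 difference in this comparison was -0.11, and the members' median was -0.37, with 3 positive and 5 negative values.

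Against Control, 4 of 8 members passed an adjusted p of 0.05, where 3.08% of all genes passed. Arntl was higher and Per3 (-1.09 ± 0.18, SE; limma adjusted p = 0.00522), Per2 and Cry2 were lower. The values of 2 members, Arntl and Per3, did not overlap between the groups, against 8.88% of all genes. Without Control replicate 1, 2 or 5, or without LLC + rFibcd1 replicate 2, the count was 2, and Arntl and Per3 passed in all 17 fits that left out a mouse. Dunn's test called 0 members, and 0.0% of all genes, after adjustment, and 5 members at an unadjusted p under 0.05, where 12.7% of all genes passed.

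Against Control + rFibcd1, which shares the injected protein and differs by the tumor, 4 of 8 members passed, where 8.06% of all genes passed. Arntl (1.71 ± 0.24, log2, SE; limma adjusted p = 0.00182) and Clock were higher, and Per3 (-1.08 ± 0.18; adjusted p = 0.00340) and Per2 (-1.47 ± 0.33; adjusted p = 0.0146) were lower. Under quantile normalization Clock did not pass, and Cry2 also passed, lower, after median-ratio scaling and when mitochondrially encoded genes were removed before rescaling. The count was 2 without LLC + rFibcd1 replicate 2, which had the highest Arntl, Npas2 and Clock and the lowest Per1, Per2, Per3 and Cry2 of its group. In Arntl and Per3, the LLC + rFibcd1 mice lay outside the range of all 13 other mice, 2 of 8 members, where 0.992% of all genes did so. In the comparisons of LLC + rFibcd1 with Control and with LLC, the directions of all 8 members held under median-ratio scaling, quantile normalization and rescaling without mitochondrially encoded genes. All of these comparisons share the same 4 LLC + rFibcd1 mice and are not independent of each other.

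The tumor without rFibcd1 was read from LLC against Control. Here 0 of 8 members passed with limma, where 35.8% of all genes passed, and 0 passed at an unadjusted p under 0.05, where 48.3% of all genes did. Dunn's test called 0 members with or without adjustment, where 0.0% and 37.5% of all genes passed. The log2 differences of the members ran from -0.15 to 0.29, beside a median of 0.16 over all genes. All 8 members overlapped between the groups, where 40.2% of all genes did not. Arntl differed by 0.29 ± 0.26 (log2, SE; 95% interval -0.26 to 0.84) and Per2 by -0.15 ± 0.36 (95% interval -0.90 to 0.61). The scaling moved these values. The members' median was 0.025 as fitted, -0.070 after rescaling without mitochondrially encoded genes, -0.13 after median-ratio scaling and -0.25 after quantile normalization, while the median of all genes went from 0.16 to 0.075, 0.0055 and -0.099. Under quantile normalization the sign of the Arntl difference turned, and 2 members, Cry1 (-0.44) and Clock (-0.32), both lower, passed at an unadjusted p under 0.05, where 47.6% of all genes did, with 0 members passing after adjustment.

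rFibcd1 in tumor-free mice gave log2 differences from -0.16 to 0.22 over the members. With limma, 0 of 8 members passed in Control + rFibcd1 against Control, where 0.0% of all genes passed, and 0 passed at an unadjusted p under 0.05, where 4.39% of all genes did. Dunn's test called 0 members with or without adjustment, where 0.0% and 2.42% of all genes passed. All 8 overlapped between the groups, where 0.812% of all genes did not. The interaction of tumor and rFibcd1, which tests whether rFibcd1 acted differently in the presence of a tumor, reached an adjusted p of 0.05 for 0 of 8 members and for 0.0% of all genes. At an unadjusted p under 0.05 it passed in 5 of 8 members (Arntl and Clock positive, Per2, Per3 and Cry2 negative), where 8.58% of all genes passed. The interaction for Arntl was 1.41 ± 0.35 (log2, SE; limma adjusted p = 0.166) and that for Per3 was -0.99 ± 0.26 (adjusted p = 0.180).

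Over all 7 tumor-bearing against all 10 tumor-free mice, 4 of 8 members passed, where 44.8% of all genes passed, so the share of members was close to the background. Arntl (1.09 ± 0.17, log2, SE; limma adjusted p = 0.000926) and Clock (0.31 ± 0.097; adjusted p = 0.0181) were higher, and Per2 (-0.90 ± 0.24; adjusted p = 0.00936) and Per3 (-0.65 ± 0.13; adjusted p = 0.00273) were lower. After median-ratio scaling and quantile normalization Arntl alone was higher and 4 members were lower, Cry1 and Cry2 with Per2 and Per3 (36.2% and 38.7% of all genes passed). Rescaling without mitochondrially encoded genes gave these 5 and Clock, higher (36.5%). The LLC mice alone, against Control, had passed in 0 members. Without 1 mouse at a time the count ran from 3 to 6, the largest count being without Control replicate 3, where Cry1 and Cry2 also passed.

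**Figure D2:**
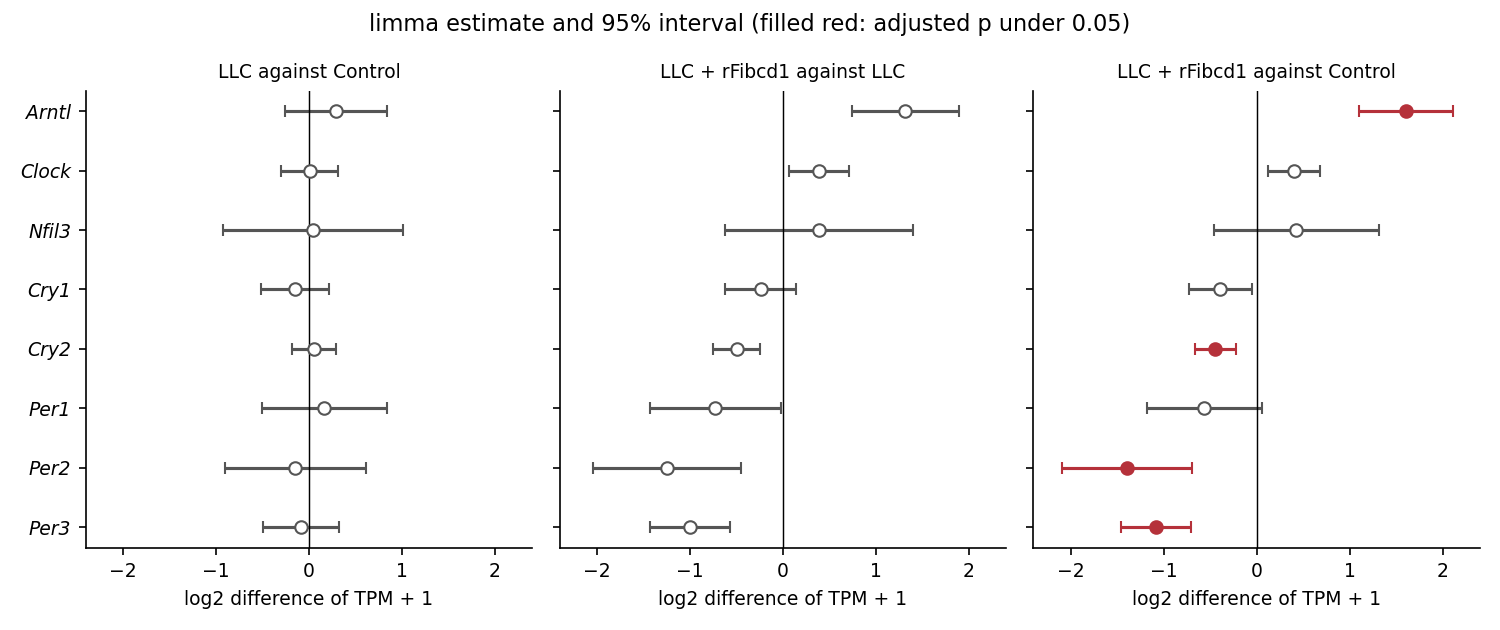
log2 difference of TPM + 1 for the 8 members tested, as limma estimates with 95% intervals, in LLC against Control, LLC + rFibcd1 against LLC and LLC + rFibcd1 against Control. In LLC against Control every interval includes 0. Against Control, LLC + rFibcd1 has Arntl at 1.61 and Per2 at -1.39, with filled red points for the 4 genes past an adjusted p of 0.05.

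To set the limbs of the loop against each other, the mean log2(TPM + 1) of Per1, Per2 and Per3 was subtracted from that of Arntl and Npas2 in each mouse. The difference was -3.57, -3.62, -1.83, -2.87 and -3.71 in Control and -3.03, -2.63 and -2.95 in LLC. It stayed between -3.23 and -3.18 in all 5 Control + rFibcd1 mice, the narrowest range of the 4 groups. In LLC + rFibcd1 it was -0.98, 0.052, -1.60 and -1.42, above every mouse of the other 3 groups. Control averaged -3.12 ± 0.80 (SD, n = 5) and Control + rFibcd1 averaged -3.21 ± 0.020 (SD, n = 5). The tumor-bearing groups averaged -2.87 ± 0.21 (LLC; SD, n = 3) and -0.99 ± 0.74 (LLC + rFibcd1; SD, n = 4). LLC + rFibcd1 thus lay 1.89 above LLC and 2.13 above Control, while LLC lay 0.25 above Control. Without 1 mouse at a time the last value ran from 0.10 (without Control replicate 5) to 0.57 (without Control replicate 3), and the Control SD of 0.80 includes Control replicate 3 at -1.83. Both limbs differed in level, the Per mean being 3.22 ± 0.37 with rFibcd1 (SD, n = 4) and 4.21 ± 0.20 in LLC (SD, n = 3), and the Arntl and Npas2 mean at 2.23 ± 0.38 against 1.34 ± 0.20.

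The ratio of Arntl to Per2 TPM separated the groups in the same way. It was 3.18, 6.71, 1.18 and 1.43 in LLC + rFibcd1, and it was below 1 in each of the other 13 mice, from 0.0768 in Control replicate 5 to 0.884 in Control replicate 3. LLC mice had ratios of 0.238, 0.514 and 0.247. Control replicate 3 was the tumor-free mouse nearest to the LLC + rFibcd1 group, with the highest Arntl, Npas2 and Clock and the lowest Per1, Per2, Per3, Cry1 and Cry2 of the Control mice.

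**Figure D3:**
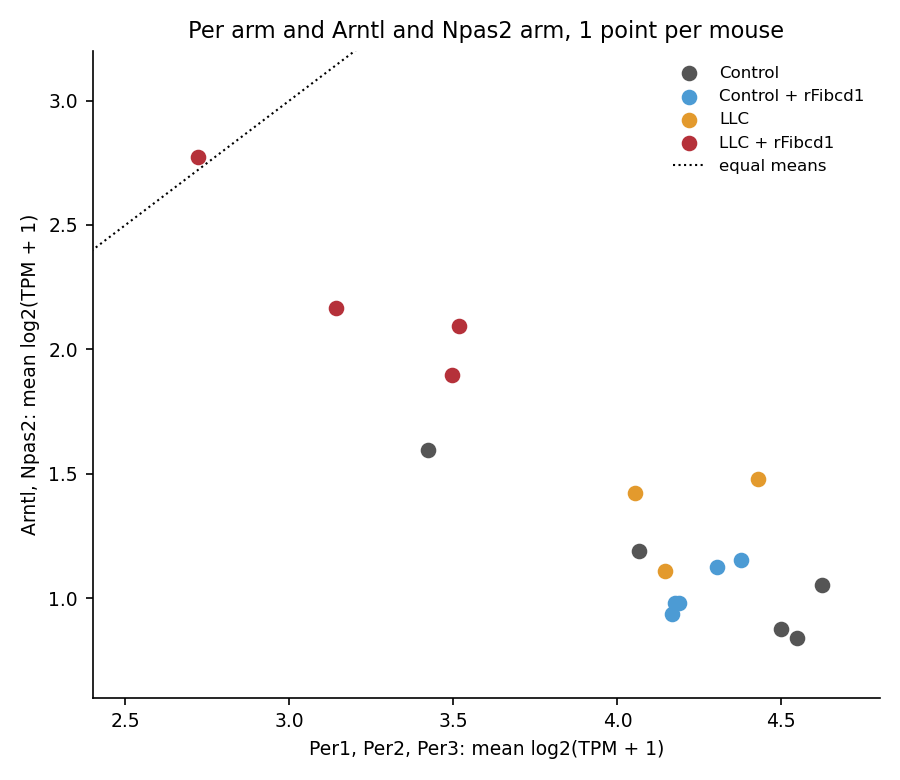
Mean log2(TPM + 1) of Per1, Per2 and Per3 (x axis) against that of Arntl and Npas2 (y axis), 1 point per mouse, colored by group, with a dotted line where both means are equal. The 4 LLC + rFibcd1 mice lie at the upper left, Control replicate 3 next to them, and the other 12 mice at the lower right.

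Across all 17 mice, the genes whose log2(TPM + 1) ran most opposite to Arntl among the 13304 other genes tested were Per3 (Pearson r = -0.97), Tef (-0.97), Per2 (-0.93), the myosin kinase gene Mylk4 (-0.93) and Dbp (-0.92). These correlations describe the same 17 libraries and include the difference between groups. The genes most like Arntl were Fam110b (0.94), Leo1 (0.91), Tek (0.90), Plekhg1 (0.88) and Ppp1r27 (0.88), and Clock ranked 9 (0.87). Tek is also on the list of endothelial genes summed below. After subtracting each group's mean, Per3 (-0.89) was still the gene most opposite to Arntl, followed by Lonrf1 (-0.86), Per2 (-0.84), Tef (-0.82) and Nrtn (-0.82). Leo1 (0.88), Ccdc94 (0.79), Arhgap24 (0.76), Ppbp (0.76) and Pdk4 (0.75) were then most like it, and Clock again ranked 9 (0.73).

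Per2 resembled Mylk4 (0.91), Cry1 (0.88), Usp2 (0.88), Per3 (0.88) and Fam76a (0.86), and it was most opposite to Arntl (-0.93), Leo1 (-0.88), Tek (-0.86), Ets2 (-0.86) and Clock (-0.84). Within groups, Cry1 (0.91), Pdxk (0.88), Tmcc1 (0.88), Mn1 (0.87) and Pde6g (0.87) were closest to Per2. Zfp867 (-0.87) and Nr1d1 (-0.86), the latter encoding REV-ERB alpha, were then most opposite to it, ahead of Arntl (-0.84), Amer1 (-0.82) and Nup133 (-0.82). Npas2 was most like Arntl (0.91), Fam110b (0.88), Stfa2l1 (0.87), Spon2 (0.86) and Cxx1a (0.84) over the 17 mice, and most opposite to Tef (-0.93), Per3 (-0.92), Mid1ip1 (-0.86), Dbp (-0.86) and Mylk4 (-0.84). After subtracting group means, the genes nearest to Npas2 were Treml1 (0.77), Gp1bb (0.75), Tubb1 (0.74), Tmem45a (0.74) and Gp9 (0.73), of which all but Tmem45a are known from platelets. Most opposite were then Igkv3-5 (-0.80), Per3 (-0.77), Mef2d (-0.75), Ighv1-42 (-0.74) and Tef (-0.74). Igkv3-5 and Ighv1-42 are immunoglobulin segments of B lineage cells, and their levels are uncertain because near-identical segments can share reads. The part of blood content in the low Npas2 values was not tested.

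Around the members, 25 other clock genes were listed, of which 23 passed the filter. In LLC + rFibcd1 against LLC, 2 of 23 passed an adjusted p of 0.05 with limma, both lower, where 0.113% of all genes passed, and the list's median log2 difference was -0.13, beside -0.11 for all genes. The count of 2 became 0 with quantile normalization, Dunn's test, a fit of only the groups compared, a model that includes the mean log2 level of B cell genes or the replicate number as a block. It was 1 (Hlf) with a pseudocount of 0.1 TPM, with or without a lower filter, with median-ratio scaling and after rescaling without mitochondrially encoded genes. Leaving out 1 mouse gave 0 to 3, with 0 lacking LLC + rFibcd1 replicate 1 or 4 or LLC replicate 1 or 3 and 3 lacking LLC + rFibcd1 replicate 3, and 1 in each fit without Control replicate 1 or 5, Control + rFibcd1 replicate 2 or 5 or LLC + rFibcd1 replicate 2. Dbp, a D-box activator switched on directly by the ARNTL pair, measured 154, 123 and 146 TPM in LLC and 73.4, 47.0, 70.1 and 70.3 TPM in LLC + rFibcd1, and its 2 groups did not overlap. It fell by 1.12 ± 0.19 on the log2 scale (adjusted p = 0.0383). Hlf, a second D-box activator, went from 7.98, 6.81 and 7.76 TPM to 3.48, 3.01, 3.04 and 3.47 TPM, a fall of 1.00 ± 0.15 (adjusted p = 0.0334), again without overlap. Tef, the remaining gene of that family, differed by -0.63 ± 0.13 (adjusted p = 0.0714), and Ciart, a repressor of the ARNTL pair, by -1.37 ± 0.34 (adjusted p = 0.128).

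Against Control, 9 of the 23 passed, 8 lower and 1 higher, where 3.08% of all genes passed, with a list median of -0.15 beside 0.059 for all genes. Lower were Dbp (-1.29 ± 0.17, log2, SE; limma adjusted p = 0.00211), Hlf (-1.09 ± 0.14; adjusted p = 0.00185), Tef (-0.79 ± 0.11; adjusted p = 0.00316), Ciart (-1.68 ± 0.30; adjusted p = 0.00777), Nr1d2, Bhlhe41, Btrc and Usp2. Timeless was higher (0.36 ± 0.081; adjusted p = 0.0261). Under quantile normalization it did not pass, and 8 genes were lower and 0 higher (2.75% of all genes passed). Against Control + rFibcd1, 8 passed, Bhlhe40 and Timeless higher and 6 lower, where 8.06% of all genes passed. The split was 1 higher and 7 lower after median-ratio scaling (3.92% of all genes passed), 0 and 7 after quantile normalization (3.51%) and 1 and 6 after rescaling without mitochondrially encoded genes (4.37%). In LLC against Control, 4 of 23 passed, where 35.8% of all genes passed, with Arntl2, the paralog of Arntl, Timeless and Nono higher and Nr1d2, encoding REV-ERB beta, lower, and none of these 4 is a D-box activator. This direction depended on the scaling. After median-ratio scaling 2 were higher and 6 lower (29.6% of all genes passed), after quantile normalization 1 was higher and 8 lower (35.2%), and after rescaling without mitochondrially encoded genes 3 were higher and 4 lower (29.7%). Nr1d2 was lower and Nono higher in all 3, whereas Timeless did not pass after the first or second and Arntl2 did not pass after the second. Control + rFibcd1 against Control called 0 of 23, where 0.0% of all genes passed, and 2 at an unadjusted p under 0.05, where 4.39% did, while Dunn's test with adjustment called 0. The interaction called 0 of 23, where 0.0% of all genes passed, and 4 without adjustment, where 8.58% did. Tumor-bearing against tumor-free mice called 13 of 23, where 44.8% of all genes passed.

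The regulators of the Arntl element gave mixed values. Nr1d1, the REV-ERB alpha repressor and itself an E-box target, measured 85.7, 95.7 and 84.7 TPM in LLC and 135, 115, 73.5 and 91.7 TPM in LLC + rFibcd1, and these ranges overlapped. Its log2 difference was 0.19 ± 0.28 (limma adjusted p = 0.666), and it passed in none of the 7 comparisons. LLC mice averaged 39.5 ± 1.82 TPM of Nr1d2 (SD, n = 3), LLC + rFibcd1 mice 33.1 ± 3.62 TPM (SD, n = 4), against 52.8 ± 7.79 TPM in Control (SD, n = 5). The activator Rora differed between LLC + rFibcd1 and LLC by -0.10 ± 0.12 (log2, SE; limma adjusted p = 0.598). The E-box repressors Bhlhe40 and Bhlhe41 differed by 0.21 ± 0.18 (adjusted p = 0.443) and -0.65 ± 0.17 (adjusted p = 0.134).

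**Figure D4:**
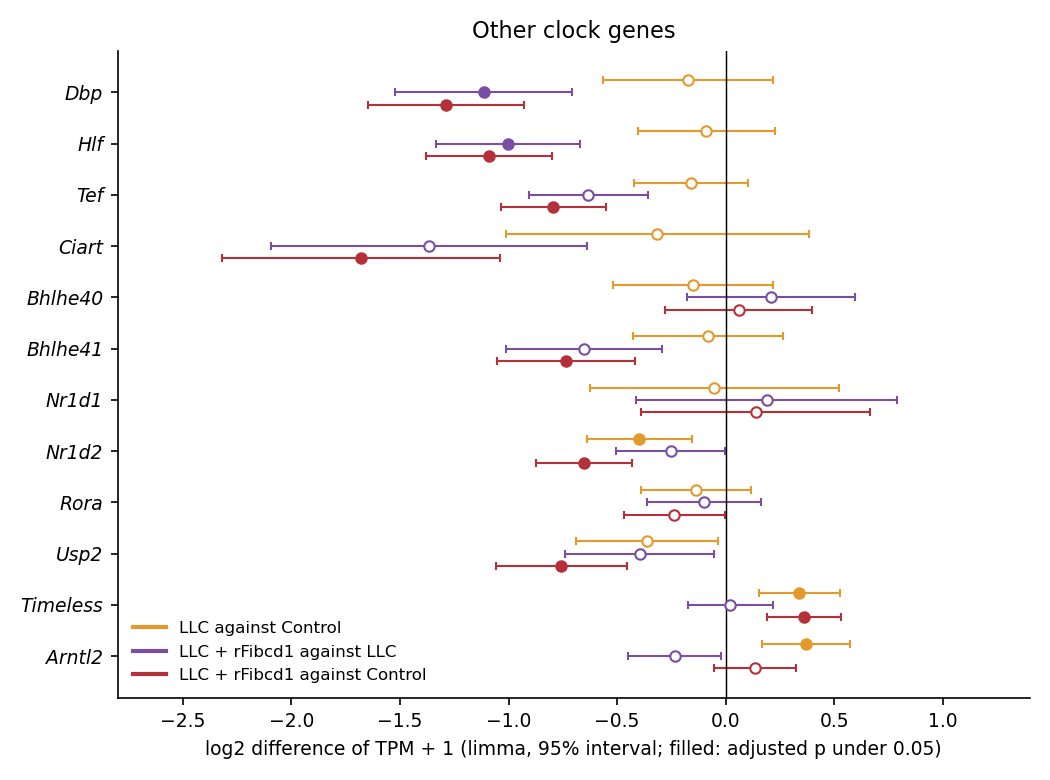
log2 difference of TPM + 1 for 12 other clock genes as limma estimates with 95% intervals in 3 comparisons, with filled points for an adjusted p under 0.05. The D-box activators Dbp, Hlf and Tef lie at -1.29, -1.09 and -0.79 in LLC + rFibcd1 against Control and close to 0 in LLC against Control, while Nr1d1 stays near 0 in all 3.

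Other cell types moved with the groups and are given beside these results. The summed TPM of 9 B cell genes was 261 to 334 in LLC, 20.7 to 321 in LLC + rFibcd1 and 2.77 to 113 in Control, and that of 7 endothelial genes was 287 to 307 in LLC + rFibcd1 against at most 278 in every other mouse. Neutrophil genes (6) summed to 57.2 to 214 TPM in LLC + rFibcd1, 51.2 to 112 in LLC and 5.05 to 17.1 in Control. T cell genes (7) summed to 2.06 to 37.5, 23.1 to 39.2 and 1.03 to 13.5 in the same order, and macrophage genes (8) to 471 to 1152, 1036 to 1187 and 327 to 680. Control + rFibcd1 mice had 3.95 to 162 TPM for the B cell, 5.18 to 79.7 for the neutrophil, 0.793 to 9.30 for the T cell and 254 to 1880 for the macrophage genes. Ranges of the white and brown adipocyte and mesothelial lists overlapped between LLC + rFibcd1 and each other group. When the mean log2 level of these B cell genes entered the model, the members passing against Control were again Arntl (1.59, limma adjusted p = 0.00533), Per3, Cry2 and Per2, while Clock did not pass against Control + rFibcd1. The share of all genes that passed in that fit is not given here, and the fit is not a test of the part of B cell content. The part of endothelial, neutrophil, T cell and macrophage content in the members was not tested, nor that of the myofiber sum given above. A list of 7 glucocorticoid response genes, which share an input with Per1, summed to 216 to 277 TPM in LLC + rFibcd1, 261 to 349 in LLC, 201 to 309 in Control and 176 to 353 in Control + rFibcd1, so its ranges overlapped.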

How the data were processed

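The authors trimmed and filtered 100-bp paired reads, aligned them to GRCm38 (mm10) and deposited TPM per gene, made in CLC Genomics Workbench 12.0.1 per the labels. The library kit is described differently by the labels and the methods, so whether counting used strand is unclear. All columns were mapped to a sample by title. Here log2(TPM + 1) was fitted with limma 3.58.1 (R 4.3.3, trend on, 4 groups, 13 residual degrees of freedom) on genes that reached 1 TPM in 3 or more mice. P-values are two-sided and Benjamini-Hochberg adjusted over all 13305 genes, with a threshold of 0.05. Fold changes on this scale are understated for low genes, and ratios of mean TPM are given for several members. The study's own Kruskal-Wallis and Dunn test was kept as an alternative. The members and gene lists were chosen with earlier results of these data known. Named were all 9 members, listed clock genes past the threshold or of the ROR, REV-ERB and D-box loops, and the 5 genes most and least correlated with Arntl, Per2 and Npas2. The values of 1 gene that the rule names are not reported here. Depth was recovered by matching 94.6% of symbols to GENCODE vM21 lengths: 80.7% to 84.0% of low values fell within 0.02 of a whole read. Lengths of Cry1 and Arntl in the authors' annotation differ, so no reads are given for them. The test was checked on simulated data. Python 3.11.15 was used for the summaries.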

Additional observations from a re-analysis of the deposited data

How the results depend on the processing

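Counts of members past the threshold depended on the test and the mice used. The share of all genes that passed also changes with the setting. It is not given for most settings here, so a changed count is not a result about the members alone. In LLC + rFibcd1 against LLC the count of 0 became 1 (Arntl) under quantile normalization, and 0 to 2 without 1 mouse at a time. In LLC + rFibcd1 against Control the count of 4 was 2 with only the groups compared in the fit, and 2 to 4 without 1 mouse. It was 0 with Dunn's test, which called 0.0% of all genes there. Of 12 alternatives other than leaving out a mouse, Arntl and Per3 passed in 11, Cry2 in 9 and Per2 in 8. Against Control + rFibcd1 it was 0 with Dunn's test, and 2 to 5 without 1 mouse. For tumor-bearing against tumor-free mice it was 2 after adding a B cell score (the mean log2 level of B cell genes) to the model, and 3 to 6 without 1 mouse. With the replicate number as a block, 2 members (Arntl and Per3) passed in each of the comparisons of LLC + rFibcd1 with Control, with Control + rFibcd1 and of tumor-bearing with tumor-free mice. Over all genes tested, 22 same-numbered pairs of mice had a median correlation of deviations of -0.061 (range -0.46 to 0.49). For 85 pairs with different numbers it was -0.026 (range -0.65 to 0.75). Whether the numbers follow the order or hour of dissection was not tested.

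For the other clock genes, LLC against Control gave 2 genes at a filter of 5 TPM, 8 after median-ratio scaling (2 higher, 6 lower), 9 after quantile normalization (1 higher, 8 lower), 7 after rescaling without mitochondrially encoded genes (3 higher, 4 lower), and 0 with Dunn's test, the B cell score or the replicate block (0 to 5 without 1 mouse, with 0 lacking LLC replicate 3). LLC + rFibcd1 against LLC gave 1 gene with a pseudocount of 0.1 TPM, with median-ratio scaling, without mitochondrially encoded genes and with the added filter, and 0 with quantile normalization, Dunn's test, only the groups compared, the B cell score and the replicate block (0 to 3 without 1 mouse). Dunn's test called 0 against Control and against Control + rFibcd1. With adjustment it called 0.0% of all genes in LLC against Control and in LLC + rFibcd1 against LLC or Control. The B cell score left 6 of the 13 called in tumor-bearing against tumor-free mice, and the share of all genes in that fit is not given here.

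The limb difference between LLC + rFibcd1 and LLC was 2.57 with Arntl and Per2 alone, and that from Control 3.00 so defined and 2.92 with a pseudocount of 0.1 TPM; both stayed positive without any 1 mouse (1.54 to 2.09 and 1.79 to 2.46). Arntl in LLC against Control was -0.032 under quantile normalization. Without 1 mouse, the values near 0 changed sign: Per2 from -0.39 to 0.039 in LLC against Control and from -0.17 to 0.25 in Control + rFibcd1 against Control, Arntl from -0.22 to 0.099 in the latter, and Nfil3 from -0.018 to 0.45 against Control + rFibcd1. Of 640 member values under the other alternatives, 20 had the opposite sign, and 0 of these were called. Groups of 3 to 5 mice limit all of these values, and so does the hour of dissection, whose part was not tested.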
